A study of Mus musculus with 2 samples.

Results

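The genes described are the 8 mouse genes Gad1, Gad2, Slc32a1, Slc6a11, Slc6a13, Slc6a5, Slc6a9 and Abat, which make, load, take up and break down the inhibitory transmitters GABA and glycine. They were chosen by name, not by level, and matched by GENCODE symbol on GRCm38 to the gene identifiers of the deposited tables. All 8 were found among 43346 Ensembl genes, of which 42462 matched a symbol. Total RNA-seq was measured in hindbrain of B6NCrl mouse embryos at day 16.5, the tissue that forms the medulla, pons and cerebellum. There was 1 group with 2 biological replicates, each a pool of hindbrains from embryos of both sexes and each sequenced as 1 library. Replicate 2 pooled 37 embryos, while the size of the other pool is not known here. A single group holds nothing to compare it with, and 2 libraries could reach a permutation p of 0.5 at the lowest, so no test is reported. Values are described by library and as mean ± SD over n = 2.

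GABA is made from glutamate by the decarboxylases that Gad1 and Gad2 encode. The vesicular transporter encoded by Slc32a1 loads both GABA and glycine into synaptic vesicles, so GABAergic and glycinergic neurons both use it. After release, plasma membrane carriers of the Slc6 family take the transmitters up into neurons and glia, and the mitochondrial transaminase encoded by Abat starts the breakdown of GABA. Inhibitory neurons that use glycine, alone or with GABA, are found chiefly in the hindbrain and spinal cord. In embryonic tissue Gad1 is also known for splicing in an extra exon with an early stop codon, which cuts short the reading frame of the full-length enzyme.

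The libraries held 42467811 and 42017008 expected counts, which are the reads assigned to all features by the authors' model. The chi-square between the replicates was 23.6 per degree of freedom over 18559 genes, so they differed by more than counting noise. Of 10 marker genes of skeletal muscle and cartilage, 9 reached a mean of 1 TPM and all 9 were over 2-fold higher in replicate 1: Acta1, Actc1, Myl1, Col2a1, Tnnc2, Ckm, Myh3, Myog and Matn1. TPM, the unit of these levels, is a relative abundance corrected for transcript length. The summed level of that list was 370 TPM in replicate 1 and 24.1 TPM in replicate 2. Levels in bulk tissue do not tell fewer cells of a type from less RNA per cell.

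The transcripts of Gad1, Gad2 and Slc6a9 differ where they start or stop, and the stretches that set them apart are shown here because the isoform results below turn on them. All are on the + strand of GRCm38, written 5′ to 3′ from GENCODE transcript sequences, with annotated start and stop codons in capitals. For Gad1 they are the first 79 coding bases of the full-length transcript Gad1-201 (chr2:70563832-70563910), the first exon of Gad1-206 (chr2:70566377-70566453) and the coding part of the embryonic exon with its stop codon (chr2:70584420-70584456).
Gad1-201 first coding stretch: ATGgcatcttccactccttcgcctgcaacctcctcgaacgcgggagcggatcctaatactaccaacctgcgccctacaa
Gad1-206 first exon: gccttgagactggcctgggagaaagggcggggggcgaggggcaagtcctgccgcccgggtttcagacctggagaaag
Gad1 embryonic exon to its stop codon: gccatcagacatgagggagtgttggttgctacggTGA
For Gad2 it is the 132-base stretch that Gad2-202 alone holds, ahead of the second exon of Gad2-201 (chr2:22623304-22623435).
Gad2-202 own stretch: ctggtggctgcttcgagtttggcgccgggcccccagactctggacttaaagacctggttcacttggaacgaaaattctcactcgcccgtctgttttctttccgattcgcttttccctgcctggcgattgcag
For Slc6a9 they are the first coding stretches of Slc6a9-202 (chr4:117843106-117843135) and of Slc6a9-209 (chr4:117849380-117849466), which begin the protein from different exons. In the second, both annotated start codons are in capitals, since other transcripts begin at the inner one.
Slc6a9-202 first coding stretch: ATGgtaggaaaaggtgccaaagggatgttg
Slc6a9-209 first coding stretch: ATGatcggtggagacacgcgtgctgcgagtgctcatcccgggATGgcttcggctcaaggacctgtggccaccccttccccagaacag

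All 8 genes were detected, at 1 TPM or more in both libraries, as were 63.5% of 21474 protein-coding genes. Their median level was 49.2 TPM, against 19.5 TPM for the 13630 detected protein-coding genes. In order of mean level they were Gad1 at 106 ± 4.82 TPM, Slc6a11 at 103 ± 16.3, Abat at 83.7 ± 5.78, Slc6a9 at 49.6 ± 5.27, Slc6a13 at 48.8 ± 3.95, Gad2 at 34.1 ± 0.940, Slc6a5 at 11.9 ± 1.28 and Slc32a1 at 10.6 ± 2.67. Gad1 lay above 88.0% of detected protein-coding genes and Slc32a1 above 34.2%. By the mean log2 ratio of Gad1 over Slc32a1, the genes spread over a 10.1-fold range. The vesicular transporter and the neuronal glycine carrier Slc6a5 were at the bottom.

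Whether neighbours in this order differ was judged by the deposited intervals on TPM, which give the error within a library. A pair was called apart when the intervals did not overlap in either library and the direction was the same in both. Of the 7 neighbouring pairs, 4 were apart. Of all pairs of detected protein-coding genes, which need not be close in level, 89.2% were. Gad1 and Slc6a11 were not, since Gad1 was higher in replicate 1 and Slc6a11 in replicate 2. Slc6a9 and Slc6a13 also changed places between the libraries. Slc6a5 and Slc32a1 had separate intervals in replicate 1 and overlapping ones in replicate 2. By this rule the order runs from Gad1 with Slc6a11 through Abat, Slc6a9 with Slc6a13, and Gad2 to Slc6a5 with Slc32a1. When protein_coding transcripts alone were counted, Gad1, at 40.4 ± 0.177 TPM, lay below Slc6a11, Abat and Slc6a9 in both libraries. That sum also holds incomplete transcripts and ones that stop in the embryonic exon. The full-length Gad1-201 alone had 31.8 ± 3.01 TPM. The plot of levels by gene shows both counts.

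**Figure D1:**
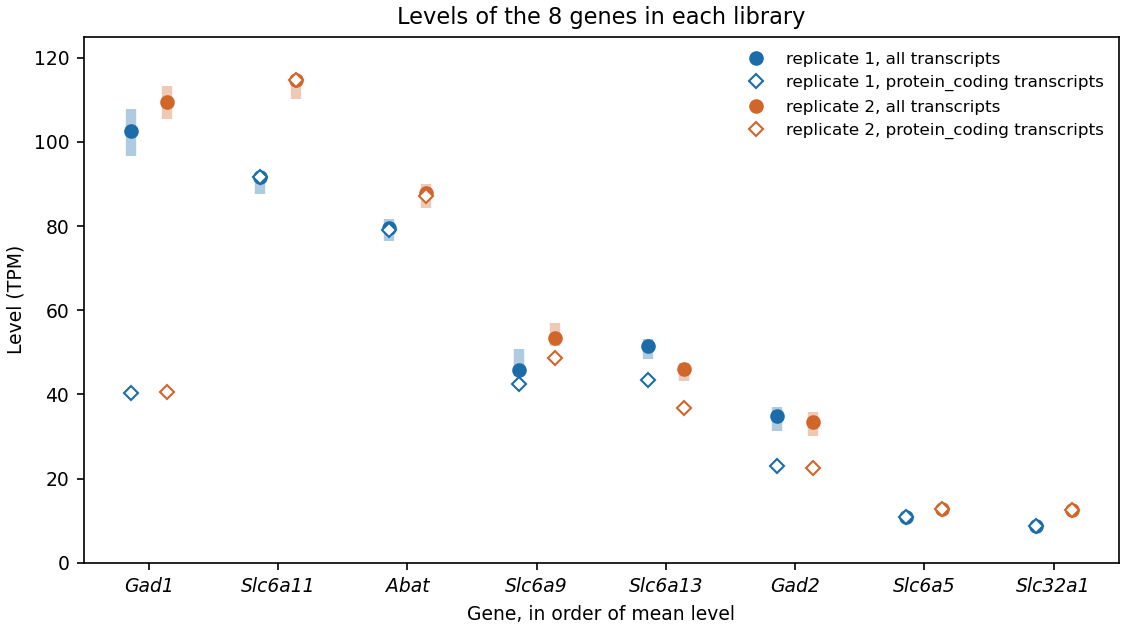
Level of each of the 8 genes in TPM (vertical axis) in replicate 1 (blue) and replicate 2 (orange). Filled circles are all transcripts of the gene, pale bars the deposited interval on that value, and open diamonds the sum over transcripts annotated protein_coding; Gad1 falls from a mean of 106 to 40.4 TPM when these alone are counted, while Slc6a11, Slc6a5 and Slc32a1 do not move.

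Gad1 (ENSMUSG00000070880.6, chr2:70553072-70602014) encodes the decarboxylase that supplies most GABA in the brain. Its level was 103 TPM in replicate 1, with an interval of 96.8 to 108, and 109.5 TPM in replicate 2, with an interval of 105.5 to 113. The libraries overlapped, and the values rested on 7183 and 8182 expected counts. The antisense gene Gad1os, which overlaps it, had 1.13 and 1.09 TPM. Gad2 (ENSMUSG00000026787.3, chr2:22622205-22693874) encodes the decarboxylase that is concentrated at nerve terminals. It had 34.8 TPM in replicate 1 (interval 31.2 to 37.0) and 33.5 TPM in replicate 2 (interval 30.1 to 35.8), again overlapping. Gad1 was 3.11-fold above Gad2, a log2 ratio of 1.64 ± 0.11, and their intervals were apart in both libraries.

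Most Gad1 RNA was assigned to a transcript that lacks the annotated start codon. Of the gene's 8 transcripts, Gad1-206, annotated processed_transcript, had 61.2 TPM in replicate 1 (interval 55.5 to 65.2) and 68.4 TPM in replicate 2 (interval 63.5 to 72.7). The full-length coding transcript Gad1-201 had 29.6 TPM (interval 23.8 to 32.9) and 33.9 TPM (interval 27.6 to 35.9). Gad1-206 was higher in both libraries with intervals apart, 2.06-fold in replicate 1 and 2.02-fold in replicate 2. It took 59.6% and 62.4% of the gene's TPM, and 61.9% and 62.3% of its counts. Both pools thus gave Gad1-206 the larger share.

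Gad1-206 starts 4335 bases downstream of Gad1-201 and shares 15 of its 17 exons. Of its 2996 bases, 2919 are also in Gad1-201, and 77, the first exon shown above, are not. The assignment between these transcripts thus rested on 2.57% of the bases of Gad1-206 and on the 436 bases of Gad1-201 that lie outside it. The 79 coding bases shown for Gad1-201, start codon included, are missing from Gad1-206, and it is the only Gad1 transcript of the 8 without that start codon. Its longest reading frame from an ATG has 444 codons, against 593 in Gad1-201, in the same frame and with the same stop codon. That ATG lies in exon 5 of Gad1-201, 149 codons into its coding sequence. The frame is a property of the sequence, and no protein was measured here.

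Transcripts annotated protein_coding took 39.3% of Gad1's TPM in replicate 1 and 37.0% in replicate 2 (38.1 ± 1.56%), a level of 40.3 and 40.6 TPM. Among detected protein-coding genes with at least 2 transcripts the median share was 92.4% in replicate 1 and 91.9% in replicate 2. A share under 50% in both libraries was found for 9.87% of 9943 such genes, and Gad1 was the only one of the 8 genes below it. Counted this way, Gad1 remained above Gad2 at a log2 ratio of 0.83 and above Slc32a1 at 1.95.

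Transcripts annotated with the embryonic exon of Gad1 took a small share. Its 80-base form (chr2:70584420-70584499) follows exon 6 of Gad1-201 and ends the reading frame after 223 codons at the TGA shown above. Gad1-205 and Gad1-207 end within longer forms of 702 and 181 bases, so Gad1-203 alone splices on from the exon. Gad1-203 is annotated only as far as chr2:70587136. Reads from exons further downstream could therefore not be assigned to any transcript with the embryonic exon. The 3 transcripts with this exon, Gad1-203, Gad1-205 and Gad1-207, together had 3.96 TPM in replicate 1 and 2.35 TPM in replicate 2. That was 3.86% and 2.15% of the gene's TPM (3.001 ± 1.21%), from 147 and 94.4 expected counts. The share was lower in replicate 2, but 1 pool per value gives no measure of that difference beyond the SD. Gad1-205 held most of it, at 2.99 TPM (interval 2.26 to 3.60) and 2.15 TPM (interval 1.55 to 2.67). Gad1-203, annotated nonsense_mediated_decay, had 0.97 and 0.20 TPM, and Gad1-207 was listed at 0 in both libraries. Gad1-201, which encodes the full enzyme, was above the sum of these transcripts in each pool.

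**Figure D2:**
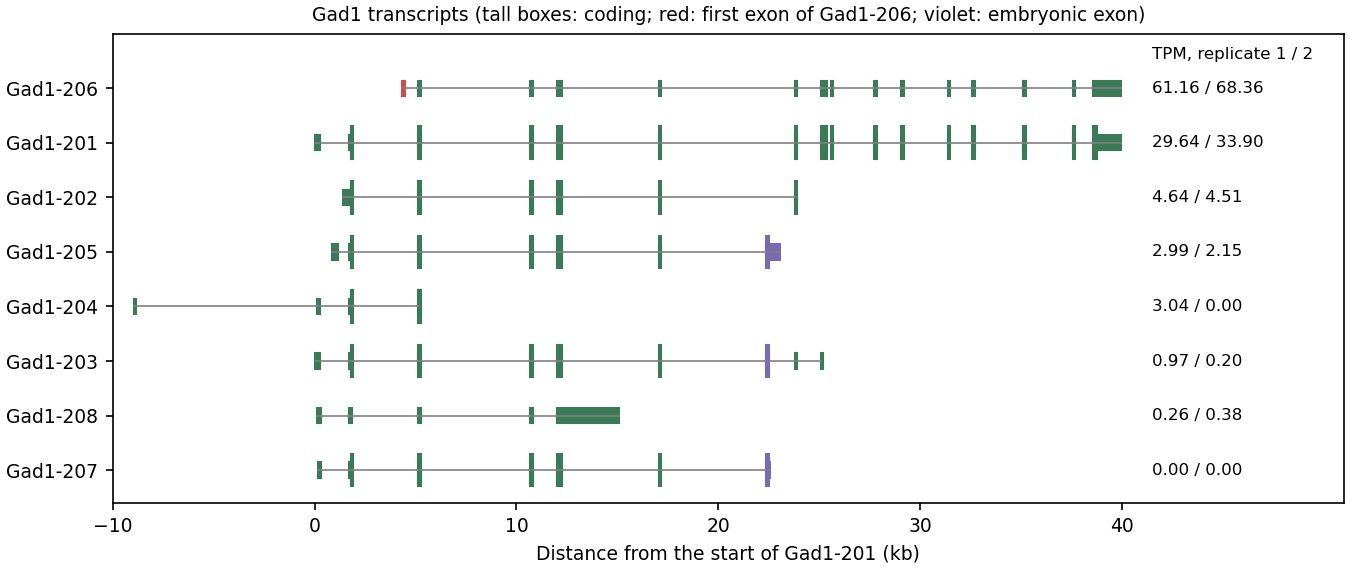
Exons of the 8 Gad1 transcripts against distance from the start of Gad1-201 in kb, with the TPM of each transcript in replicates 1 and 2 at the right. Tall boxes are coding, low boxes are not, narrow exons are widened to stay visible, red marks the first exon of Gad1-206 and violet the embryonic exon; the upper 2 transcripts share their exons except at the start.

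Gad2 also had a transcript outside the coding class. Gad2-202, a processed_transcript of 5 exons and 721 bases, had 11.8 TPM in replicate 1 (interval 8.61 to 14.6) and 10.96 TPM in replicate 2 (interval 8.04 to 13.995). The coding transcript Gad2-201 had 23.0 TPM (interval 21.6 to 23.3) and 22.5 TPM (interval 21.2 to 22.8). Gad2-202 thus held 33.9% and 32.7% of the gene's TPM. The 132 bases that set it apart lie in the intron of Gad2-201 just ahead of its second exon. Reads from unspliced Gad2 RNA there could not be told apart from Gad2-202. By counts Gad2-202 held 5.36% and 5.09%, from 184 and 175 expected counts, because TPM divides by a length that is short for this transcript.

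Slc32a1 (ENSMUSG00000037771.11, chr2:158610767-158615748), the vesicular transporter for GABA and glycine, had the lowest level of the 8 and the largest ratio between the pools. It was at 8.74 TPM in replicate 1 (interval 7.81 to 9.23) and 12.5 TPM in replicate 2 (interval 11.4 to 13.0), from 592 and 869 expected counts. The intervals were apart, with replicate 2 higher by 1.49-fold (log2 0.57, counting SE 0.077). Gad1 was 10.1-fold above Slc32a1 (log2 3.34 ± 0.30) and Gad2 3.26-fold above it (log2 1.71 ± 0.41), with intervals apart in both libraries. Slc32a1 has a single transcript, so these ratios carry no isoform split on its side. The antisense gene Gm14205, which overlaps it, had 0.43 TPM in replicate 1 and was listed at 0 in replicate 2.

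Of the GABA carriers, Slc6a11 was the more abundant. Slc6a11 (ENSMUSG00000030307.7, chr6:114131241-114249952) encodes a GABA transporter that is mainly astrocytic in the adult brain. Its level was 91.7 TPM in replicate 1 and 115 TPM in replicate 2, with intervals of 87.7 to 91.4 and 110.1 to 114, so the deposited TPM lay just above its own interval in both. Replicate 2 was higher by 1.30-fold (log2 0.38). Of 10 astrocyte and radial glia markers, 6 were also higher in replicate 2 with intervals apart, while 1, Sox9, was higher in replicate 1. Their summed level was 2837 TPM in replicate 1 and 3584 TPM in replicate 2, mostly from Fabp7 at 1841 and 2399 TPM, and none was at 0. Their part in the difference of Slc6a11 was not tested. The direction was not particular to glial genes. Intervals were apart and higher in replicate 2 for 6 of 12 inhibitory interneuron markers and 4 of 8 genes of excitatory transmission, with 0 the other way. They were so for 4 of 8 markers of neurons in general, with 2 the other way. Of protein-coding genes within the range of the 8 levels, 7.12% were higher in replicate 2 by this measure.

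Slc6a13 (ENSMUSG00000030108.10, chr6:121300227-121337733) encodes a GABA and taurine carrier that in brain is best known from the meninges. It was at 51.6 TPM in replicate 1 (interval 48.5 to 53.1) and 46.0 TPM in replicate 2 (interval 43.2 to 47.6). It was the only one of the 8 genes with intervals apart and a higher level in replicate 1, by 1.10-fold, although scaling on spike-in totals placed replicate 2 higher (log2 0.30). Of 12 markers of meninges and fibroblasts, 9 were also higher in replicate 1 with intervals apart and 0 were higher in replicate 2. Their summed level was 1129 TPM in replicate 1 and 739 TPM in replicate 2, none was at 0, and of the 11 with a mean of 1 TPM, 10 had a log2 ratio below 0. Their part in the difference of Slc6a13 was not tested. The direction was not particular to this list. Intervals were apart and higher in replicate 1 for 8 of 8 red blood cell genes and 10 of 10 of muscle and cartilage. They were so for 9 of 20 genes listed for hindbrain inhibitory neurons, with 0 the other way, and for 4 of 8 endothelial genes, with 1 the other way. Of protein-coding genes within the range of the 8 levels, 26.7% were higher in replicate 1 by this measure. Slc6a11 was 2.10-fold above Slc6a13 (log2 1.07 ± 0.35), with intervals apart in both libraries and the wider gap in replicate 2.

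Slc6a13-201, its coding transcript, took 84.0% of the gene's TPM in replicate 1 and 80.1% in replicate 2. The retained_intron transcript Slc6a13-202 took 10.3% and 13.5%. Slc6a11 has 1 transcript in the files.

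Of the glycine carriers, Slc6a9 was the more abundant by 4.19-fold, with nearly the same ratio in each pool (log2 of Slc6a5 over Slc6a9 -2.07 ± 0.0026). Slc6a5 (ENSMUSG00000039728.10, chr7:49910146-49963856) encodes the carrier of glycinergic nerve terminals and is a marker of those neurons. It was at 10.95 TPM in replicate 1 (interval 10.3 to 11.4) and 12.8 TPM in replicate 2 (interval 11.7 to 13.3), apart and higher in replicate 2. Slc6a9 (ENSMUSG00000028542.13, chr4:117834506-117875198) encodes the carrier found mainly on glia. It was at 45.9 TPM in replicate 1 (interval 44.3 to 50.9) and 53.4 TPM in replicate 2 (interval 51.6 to 57.01), again apart and higher in replicate 2. The carriers known mainly from glia, Slc6a11 and Slc6a9, were thus both above the neuronal Slc6a5, and Slc6a11 was 2.07-fold above Slc6a9 (log2 of Slc6a9 over Slc6a11 -1.05 ± 0.076).

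Slc32a1 and Slc6a5, which glycinergic neurons use together, stood close. Slc6a5 was higher in both pools, with a log2 ratio of Slc32a1 over Slc6a5 of -0.33 in replicate 1 and -0.03 in replicate 2, but the intervals were apart in replicate 1 alone. Of the 8 pairs of these genes that were compared by role, it was the only one not called. Of all 92881635 pairs of detected protein-coding genes 89.2% were called by the same rule, so the 7 called pairs are near that background.

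Slc6a9 transcripts differ in their first coding exon, as shown above. Those that start at the exon of Slc6a9-202 (chr4:117843106-117843135) took 90.7% of the gene's TPM in replicate 1 and 88.6% in replicate 2. Those that start in the first exon of Slc6a9-209 took 4.18% and 7.91%, or 1.92 and 4.22 TPM. Slc6a9-202 itself had 29.3 TPM (interval 25.4 to 31.3) in replicate 1 and 33.7 TPM (interval 30.1 to 35.9) in replicate 2. Slc6a9-201 followed with 10.98 TPM (interval 7.86 to 12.8) and 10.4 TPM (interval 7.40 to 11.99). The upstream coding start was therefore the main one in each pool. B4galt2 overlaps Slc6a9 on the opposite strand and had 55.1 and 54.0 TPM, and the use of strand in the authors' counting is not known here.

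Slc6a5-201 carried 100% of its gene's TPM in replicate 1 and 87.6% in replicate 2. Slc6a5-202 took the other 12.4% there, at 1.59 TPM (interval 0.728 to 2.51), and was listed at 0 in replicate 1. Slc6a5-202 holds 1 base outside Slc6a5-201, which has 4599 bases outside Slc6a5-202.

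Abat (ENSMUSG00000057880.8, chr16:8513429-8621568) encodes GABA transaminase, which turns GABA into succinic semialdehyde. It was at 79.6 TPM in replicate 1 (interval 76.6 to 81.8) and 87.8 TPM in replicate 2 (interval 84.3 to 90.1), apart and higher in replicate 2. Gad1 was 1.27-fold above Abat (log2 0.34 ± 0.034) when all transcripts were counted. Counting protein_coding transcripts alone turned this order: Abat kept 79.2 and 87.3 TPM, and the log2 ratio of Gad1 over Abat became -1.04, with Abat higher in both pools. Which enzyme gene is the higher thus depends on whether Gad1-206 is counted.

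Abat-201 took 89.7% of the gene's TPM in replicate 1 and 78.3% in replicate 2, while Abat-203 took 8.52% and 20.7%. In TPM, Abat-203 had 6.78 (interval 5.02 to 8.62) in replicate 1 and 18.2 (interval 14.8 to 20.7) in replicate 2. The intervals were apart. Abat-203 has no base that other Abat transcripts lack, Abat-201 has 2218, and Abat-201 itself had 71.4 and 68.7 TPM. Both are annotated protein_coding, as was 99.5% and 99.4% of the gene's TPM.

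**Figure D3:**
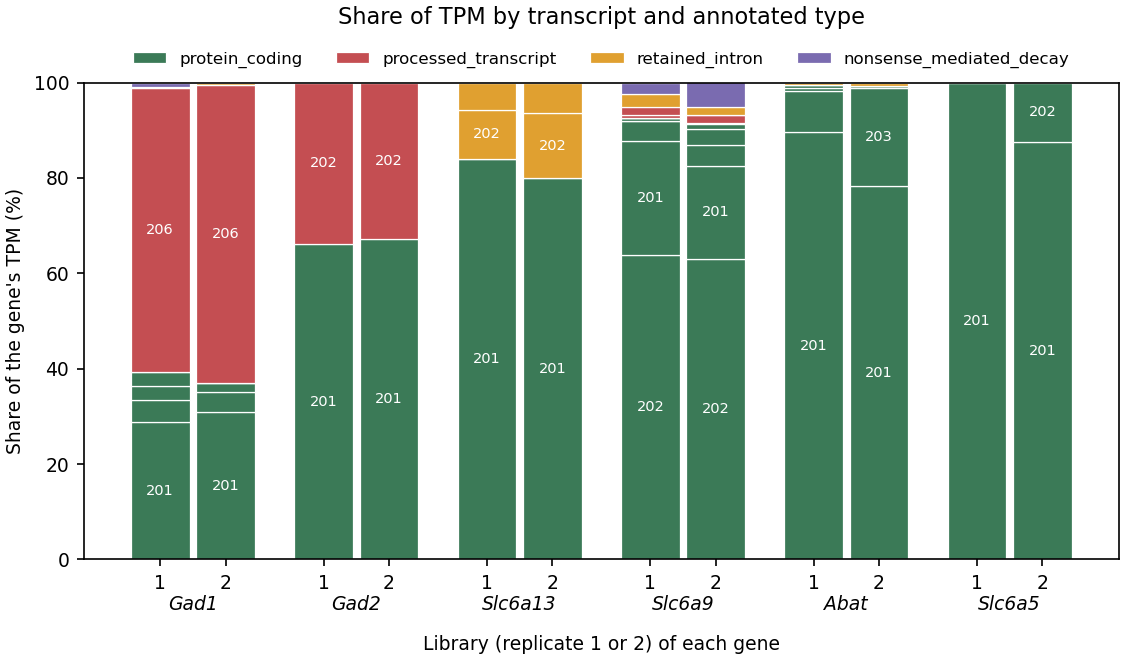
Percent of each gene's TPM (vertical axis) taken by each transcript in replicates 1 and 2, coloured by annotated type, for the 6 genes with several transcripts. Numbers name transcripts with a larger share, and Gad1 is the only gene where protein_coding transcripts stay under 50% in both libraries.

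Between the pools, the intervals were apart for 6 of the 8 genes, 5 of them higher in replicate 2 (Slc32a1, Slc6a11, Slc6a9, Slc6a5 and Abat) and 1 in replicate 1 (Slc6a13). Among 13843 protein-coding genes whose mean reached 1 TPM, 31.4% were apart, 9.07% higher in replicate 2 and 22.3% higher in replicate 1. Over all 16037 genes of any type at that level the shares were 29.5%, 9.88% and 19.6%. Among the 7342 protein-coding genes within the range of the 8 levels they were 33.8%, 7.12% and 26.7%. The side of replicate 2 thus held most of the 8 genes and the smaller share of genes at large, a difference that was not tested. The log2 ratio of replicate 2 over replicate 1, from counts scaled by TMM, was above 0 for 7 of the 8, or 6 with the ratio of TPM, where Gad2 had -0.06. Its median was 0.18 against -0.01 for protein-coding genes. In the same range of levels, 46.2% of genes had a ratio above 0. The sizes were small: none of the 8 passed 2-fold, and the ratios ran from -0.14 for Slc6a13 to 0.57 for Slc32a1. Past 2-fold were 1.5% of the protein-coding genes, 0.405% towards replicate 2 and 1.1% towards replicate 1, and 4.5% of genes of any type, 2.97% and 1.53%. Scaling on spike-in totals moved the median of all genes by 0.44, put Slc6a13 at 0.30, and put Slc32a1 past 2-fold at 1.02. The direction for Slc6a13 therefore holds relative to the other genes, not to the spike-ins.

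**Figure D4:**
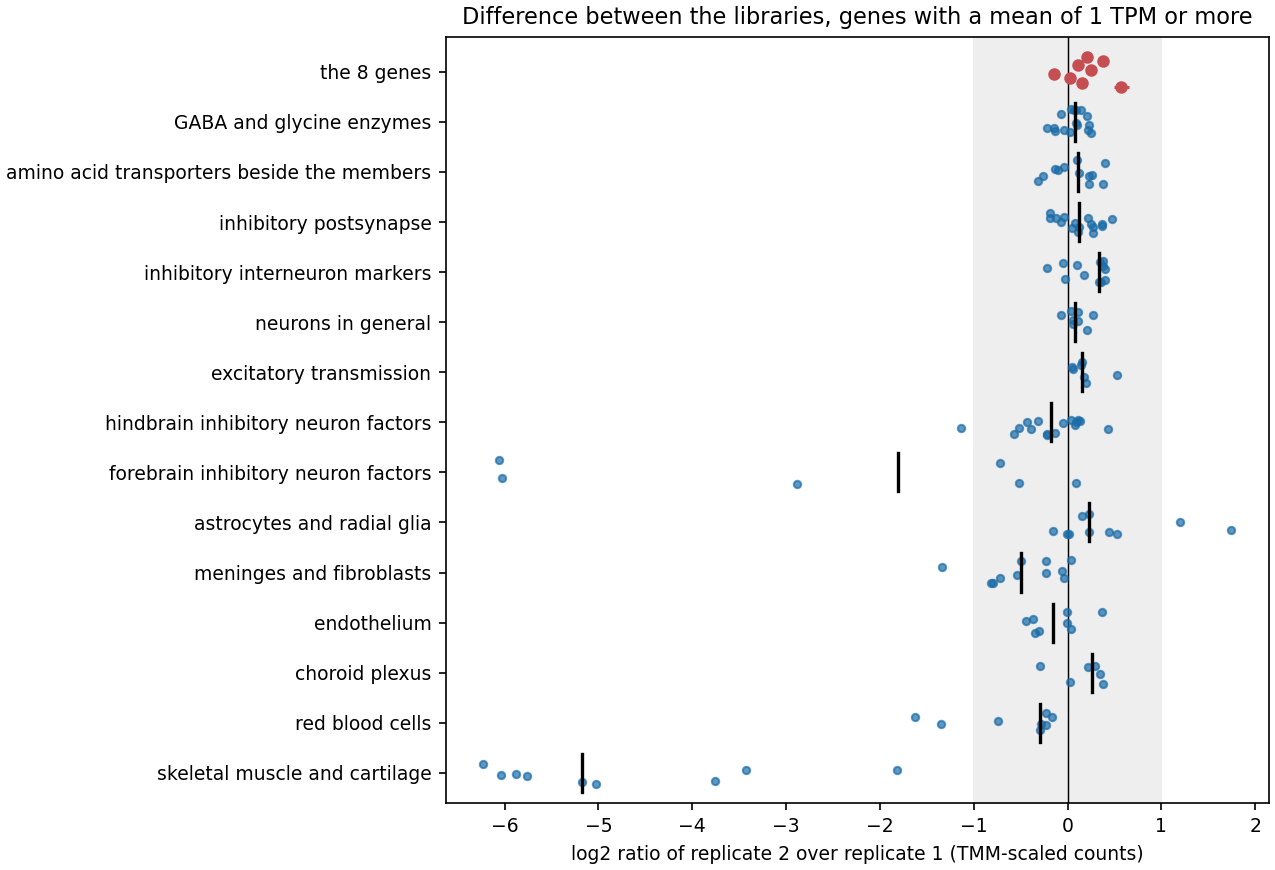
Log2 ratio of replicate 2 over replicate 1 (horizontal axis) for the 8 genes (red, with counting SE) and for genes of 14 lists that reach a mean of 1 TPM (blue, black bar at the median). The grey band is 2-fold either way; the 8 genes lie between -0.14 and 0.57, while the muscle and cartilage genes lie beyond 2-fold in replicate 1.

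The enzymes and other carriers around the 8 genes were all detected, and none passed 2-fold between the pools. Of 16 enzymes of GABA, glutamate, glycine and serine metabolism 16 were detected, at a median level of 36.9 TPM with a median log2 ratio of 0.07, and 11 of 16 ratios were above 0. Glul, glutamine synthetase, was at 192 ± 18.5 TPM, Phgdh, the first enzyme of serine synthesis, at 174.5 ± 13.1, and Dld, a shared subunit of the glycine cleavage system, at 113 ± 5.17. Glud1, glutamate dehydrogenase, had 98.8 ± 1.41 TPM. Aldh5a1, which oxidises the product of Abat, was lower at 13.1 ± 0.233 TPM. Gldc, the decarboxylase of glycine cleavage, at 7.38 ± 0.474 TPM, and Shmt1, which interconverts serine and glycine, at 7.42 ± 1.69, were the lowest and changed places between the libraries. Of 12 other amino acid transporters 12 were detected and their median was 34.3 TPM. The highest was the glutamine carrier Slc38a2 at 79.7 ± 14.3. Slc6a12, the betaine and GABA carrier, was the lowest at 2.09 ± 0.0707 TPM, so it was below every carrier among the 8 genes.

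On the receiving side, 16 of 16 genes of the inhibitory postsynapse were detected at a median level of 35.9 TPM. Among them, the GABA receptor subunits Gabra5 and Gabra2 were at 55.0 ± 8.49 and 53.3 ± 5.71 TPM, and the glycine receptor subunit Glrb was at 53.1 ± 11.5 TPM. Of 12 genes listed as inhibitory interneuron markers, 12 were detected. Their median was 48.3 TPM with a median log2 ratio of 0.34, and 9 of 12 ratios were above 0. The peptide genes Sst at 346 ± 58.3 TPM, Penk at 174 ± 25.1, Npy at 138 ± 2.99 and Tac1 at 137 ± 8.78 led them. Levels in bulk tissue do not tell whether inhibitory or excitatory neurons expressed these genes. None of these genes passed 2-fold between the pools. For comparison, the vesicular glutamate transporter gene Slc17a6 had 87.8 TPM in replicate 1 and 95.5 TPM in replicate 2, above Slc32a1 in both, and 7 of 8 genes of excitatory transmission were detected.

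Genes listed for hindbrain inhibitory neurons, mostly transcription factors, were present at low levels, as 16 of 20 were detected with a median of 4.10 TPM. Lhx1 was at 33.2 ± 4.25 TPM, Gata3 at 25.6 ± 3.95, Lhx5 at 19.1 ± 2.55 and Pax8 at 18.9 ± 1.64. Ptf1a, the factor that specifies inhibitory neurons of the cerebellum and dorsal hindbrain, had 1.33 and 1.38 TPM. By scaled counts Pax5 was the only one of the 16 past 2-fold, but its levels of 1.57 and 1.02 TPM had overlapping intervals and differed by less than that. Among factors of forebrain inhibitory neurons 3 of 13 were detected, Ebf1 at 90.4 ± 2.44 TPM, Isl1 at 18.4 ± 8.74 and Sp8 at 1.71 ± 0.474. These are also expressed outside the forebrain. In replicates 1 and 2 the levels were 7.94 and 0.07 TPM for Dlx1, 3.04 and 0.03 for Dlx5, and 2.85 and 0.40 for Lhx6. These 3 were over 2-fold higher in replicate 1, of 6 factors that reached a mean of 1 TPM. Among genes with at least 10 counts, 8 of 11 on the forebrain list and 3 of 19 on the hindbrain list were over 2-fold higher there. The latter were Pax5, Neurog1 and Dmrt3. The forebrain direction was opposite to that of the 5 genes of GABA and glycine handling with higher levels in replicate 2, and its part in their levels was not tested.

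Markers of other cells that differed between the pools were Gfap, at 4.03 TPM in replicate 1 and 13.0 in replicate 2, and Aqp4, at 12.1 and 26.8, both astrocytic and over 2-fold higher in replicate 2. Over 2-fold higher in replicate 1 were the collagen gene Col1a1, at 231 and 88.0 TPM, and the embryonic globins Hbb-y, at 28.2 and 10.7, and Hba-x, at 13.6 and 4.16. Neuron markers in general differed less. All 8 were detected, their median level was 281 TPM and their median log2 ratio 0.08. For endothelium the median log2 ratio was -0.15 over 8 genes, and for choroid plexus it was 0.26 over 6. For red blood cells it was -0.29 over 8 genes, each below 0.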

How the data were processed

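Total RNA longer than 200 bases was sequenced from 2 pools of one group, with 10 ng of RNA per library and spike-ins, per the labels. The authors quantified each replicate against mm10 with GENCODE M4, as notes beside the files state. Of the quantifier, the use of strand and the confidence level of the intervals, nothing is given in the sources used. The deposited expected counts are estimated reads per feature and can be fractional. In the deposited TPM values these are corrected for effective length, and the deposited FPKM values served as an alternative. Isoform shares are the deposited percent of TPM within a gene. Interval bounds were deposited as well and are treated as scores.

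Names, structures and sequences were taken from GENCODE M21, which uses the build of the files. Of 37 transcripts of the 8 genes, 36 had the same length in it. Rounded expected counts, without spike-ins (2.18% and 1.59% of counts), were scaled by TMM using edgeR 4.0.16 under R 4.3.3. The prior count of log2 ratios was 0.5, and scaling used genes that reached a mean of 1 TPM. Their SE covers counting error only. DESeq2 1.42.0 gave other size factors. Python 3.11.15 with pandas 2.3.3 made the summaries, and the ratio step was tested on simulated data.

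The 8 genes, pairs and 14 lists were chosen with earlier results of these data known. The genes named are the 8, up to 4 of each list with the highest mean, the lowest where informative, those past 2-fold, overlapping genes, transcripts of Gad1 at 5% or more and of other genes at 10% or more. Slc17a6, Ptf1a, Aldh5a1, Gad1-203, Gad1-205, Gad1-207 and Slc6a9-209 were added for their role. The comparison with genes in the range of the 8 levels was added after the data were examined. Values of some list genes enter the counts and medians but are not reported here.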

Additional observations from a re-analysis of the deposited data

How the results depend on the processing

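With transcripts annotated protein_coding alone, the log2 ratio of Gad1 over Abat reversed to -1.04, Gad1 over Gad2 became 0.83, Gad1 over Slc32a1 became 1.95 and Gad2 over Slc32a1 became 1.12. Slc6a5 over Slc6a9 became -1.94, or -2.12 with posterior mean TPM, and Slc6a9 over Slc6a11 became -1.17. By the share of TPM in transcripts that keep the full coding sequence, Gad1 had 29.9% in place of 38.1%. Scaling on spike-in totals moved every one of the 8 ratios between the pools, which then ran from 0.30 for Slc6a13, a reversal, to 1.02 for Slc32a1, and put 1 gene, Slc32a1, past 2-fold. The ratio of deposited TPM reversed Gad2 to -0.056. Leaving out either replicate gives the single-library values in the text, and no alternative on detection moved the count of the 8 genes. No paired analysis was possible because there is 1 group. Ratios between the pools have no value without a replicate. The error between pools rests on 2 libraries. The split between Gad1-206 and Gad1-201 rests on their starts, and antisense reads could not be separated.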
